A study of Mus musculus with 25 samples.

Results

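The comparison described here is that of livers taken 4 hours after partial hepatectomy (PHx) with livers taken 4 hours after sham surgery. It was chosen by the sample titles and rests on 10 of the 25 arrays of the series, 5 of PHx livers and 5 of sham livers. All 10 mice were male Balb/c mice, 8 weeks old according to the labels. PHx was the removal of the left lateral and median lobes under isoflurane, and the sham operated mice were the control for every time after PHx. The 4 hour group is the only one whose livers were taken at the same time after surgery as the control, so PHx and hours since surgery are not mixed in it. Each array held the total RNA of 1 liver, labelled with Cy3, and carried probes for mRNAs and for putative long noncoding RNAs (lncRNAs). Whole liver was used, so fewer cells of a type and less RNA per cell cannot be told apart. The labels do not say which operations were done together.

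Liver grows back after PHx mainly by division of hepatocytes that are quiescent before surgery. In the first hours, the priming phase, cytokine and growth factor signals reach hepatocytes through receptors such as the interleukin 6 receptor, Met and Egfr, and immediate early and acute phase genes are turned on while DNA synthesis has not begun. The remnant meanwhile has to keep up plasma protein synthesis, detoxification and glucose supply for the whole animal.

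The arrays were alike in scale, with a median intensity between 98.35 and 102.15 and a lower quartile near 64.6 (about 6 on the log2 scale), which marks the floor of the measurement. The Pearson correlation across probes was 0.988 to 0.995 between sham arrays, 0.992 to 0.996 between PHx arrays and 0.983 to 0.992 between the groups. The first principal component of the 10 arrays held 43% of the variance and had the sham arrays at -35.19 to -17.46 and the PHx arrays at 19.36 to 30.96. The second, with 17.67%, set sham arrays 1 and 5 (-18.43 and -20.52) apart from sham arrays 3 and 4 (31.47 and 18.26). Hepatocyte markers were among the brightest probes, as fits the labelled tissue, whereas the lymphocyte markers Icos and Bank1 together reached an intensity of at most 171.9 on any of the 10 arrays.

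Of 35979 probes, 2202 (6.12%) were higher and 2283 (6.35%) were lower at 4 hours after PHx by limma with an adjusted p under 0.05. Most changes were small, with a median log2 fold change of 0.47 among the higher and -0.47 among the lower probes. A change of at least 2-fold was seen for 241 probes upwards (0.67%) and 134 downwards (0.372%), and one of at least 4-fold for 30 upwards and 7 downwards. On 2103 probes (5.85%) all 5 PHx arrays lay above all 5 sham arrays, and on 1783 (4.96%) all lay below. The median over all probes was 0.00 on the log2 scale. The deposited values had already been brought to 1 scale between arrays, so this median cannot show whether there was a general shift.

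The 2 probes with the largest rise carry no name in the sources used here. Probe IVGNm26185 read 6.65, 7.60, 7.73, 7.97 and 8.16 on the log2 scale on the sham arrays and 12.81, 12.74, 11.87, 11.58 and 11.34 on the PHx arrays, which is a rise of 4.44 on the log2 scale with a standard error of 0.47 (limma, adjusted p = 8.43e-07). Probe IVGNm15932 rose by 4.38, from a sham mean of 8.16 ± 0.31 to 12.54 ± 0.42 after PHx (SD, n = 5 each; adjusted p = 4.23e-09 by limma). Of the unnamed probes with the largest fall, IVGNm17508 went from 11.38 ± 1.11 (SD, n = 5) to 8.59 ± 0.29 (SD, n = 5), with no overlap between the groups. IVGNm20020 had a larger fold change than any named gene, -2.56, but its sham arrays spread from 7.67 to 11.85 and overlapped the PHx arrays at 7.30 to 7.80, and its call was lost with the methods' t-test (adjusted p = 0.0854). That test was two-tailed with equal variances, run per probe on the same log2 values and adjusted by Benjamini and Hochberg. The paper names a t test for its statistics in general, but its own array calls came from a regression over the time course (maSigPro).

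Names were known for few of the early risers. The transcript list published with the study, as far as it was at hand, covers its clusters 1 to 4 of transcripts that changed over the time course on these same arrays, and clusters 2 and 3 are those of falling transcripts. It holds 862 (37.8%) of the 2283 lower probes and 24 (1.09%) of the 2202 higher ones. Counts of named genes below are therefore no independent evidence of a direction. Among 1170 named protein-coding genes, each taken by its brightest probe, 20 were higher and 465 were lower at 4 hours, where 6.12% and 6.35% of all probes were.

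Reg3b led the named genes that rose. It encodes a secreted C-type lectin that binds bacterial cell walls and is induced by interleukin 6 type cytokines. Its log2 intensity was 5.98, 6.07, 6.95, 7.33 and 6.24 in sham livers and 8.08, 8.23, 8.56, 9.22 and 8.39 after PHx. All PHx livers lay above all sham livers, the nearest by 0.75. The means differed by 1.98 on the log2 scale (standard error 0.37, adjusted p = 0.000673 by limma) or 3.96-fold, which may be smaller than the true change since 2 sham livers were at the floor. Even so it ranked only 31 among all probes by size of rise. Its neighbour and relative Reg3g had a mean of 6.56 ± 0.34 without PHx and 6.84 ± 0.23 with it (SD, n = 5 each). That difference of 0.28 (adjusted p = 0.658 by limma) did not pass, and the PHx arrays at 6.68 to 7.23 lay within the spread of the sham arrays at 6.17 to 6.97 except for 1. The difference between the responses of the pair was not tested. At later times Reg3g was higher, with log2 fold changes over the same sham livers of 2.65 at 12 hours and 2.32 at 36 hours.

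Since these neighbours on chromosome 6 gave such unlike values at 4 hours, their promoters are shown, as 300 bases from RefSeq on GRCm38.p6 read in the direction of transcription, the last 50 of them after the start of the gene. Reg3b lies on the plus strand (chr6:78370635-78370934) and Reg3g on the minus strand (chr6:78468825-78469124). Capitals mark a match on either strand to the STAT site TTCNNNGAA in Reg3b and to the NF-kB site GGGNNTTCC in Reg3g. They are matches of letters, not known sites, and whether they bear on the values at 4 hours was not tested.
Reg3b: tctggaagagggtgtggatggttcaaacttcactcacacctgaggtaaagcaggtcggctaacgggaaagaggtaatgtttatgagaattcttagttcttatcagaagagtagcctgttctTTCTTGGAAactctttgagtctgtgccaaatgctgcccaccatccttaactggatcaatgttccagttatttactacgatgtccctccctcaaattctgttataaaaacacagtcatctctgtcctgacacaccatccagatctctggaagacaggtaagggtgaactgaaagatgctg
Reg3g: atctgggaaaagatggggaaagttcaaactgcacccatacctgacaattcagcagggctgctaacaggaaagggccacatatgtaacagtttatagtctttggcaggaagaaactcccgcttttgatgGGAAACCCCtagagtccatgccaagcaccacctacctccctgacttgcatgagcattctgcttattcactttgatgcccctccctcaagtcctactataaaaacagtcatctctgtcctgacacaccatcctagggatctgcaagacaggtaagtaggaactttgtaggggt
The STAT site occurs in 8.3% and the NF-kB site in 5.82% of all 32851 promoter windows, each 300 bases long, of the table. Of the windows of genes lower at 4 hours, 6.37% held the STAT site and 8.49% the NF-kB site, against 8.2% and 7.45% of the windows of named genes that were not called. The E-box CACGTG was found in 9.77%, 9.84% and 7.15% of the windows of lower, uncalled and all genes. The AP-1 site TGANTCA was found in 4.25%, 4.02% and 7.81%, and the cAMP response element TGACGTCA in 1.91%, 2.98% and 1.79%. For the 20 genes that rose, only 14 had a window in the table (70%), so a share over that group would be void and is not given.

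The other risers changed by less than 2-fold. Slc1a4, which carries neutral amino acids such as serine and alanine into cells, was at 8.02, 7.55, 7.40, 7.38 and 7.96 in sham livers and at 8.27, 8.83, 8.54, 8.35 and 8.46 after PHx, a rise of 0.83 on the log2 scale (standard error 0.15, adjusted p = 0.000465 by limma). A second Slc1a4 probe rose by 0.63. Setd4, a protein methyltransferase of the SET domain family, read 9.07, 8.70, 8.21, 8.18 and 8.15 in sham livers and 9.09 to 9.39 after PHx, so that the groups were separate but nearly met. Its rise was 0.81 (adjusted p = 0.000345 by limma). Mis18a, which helps to load the centromeric histone before the next division, rose by 0.55, from 8.39 ± 0.11 to 8.94 ± 0.21 (SD, n = 5 each). The 4 genes Slc1a4, Setd4, Mis18a and Slbp also had log2 fold changes of at least 2.07 over the same sham livers at 36 hours. At 12 hours, in between, the values were -0.15 for Slc1a4, -0.16 for Setd4, -0.05 for Mis18a and 0.40 for Slbp.

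The remaining risers were of several kinds and included carriers, a pump subunit and a kinase. Atp1b3, a beta subunit of the sodium pump, rose by 0.51 (from 10.83 ± 0.06 to 11.34 ± 0.13, SD, n = 5 each). Slc6a6, the taurine transporter, rose by 0.50 (from 10.11 ± 0.11 to 10.61 ± 0.14, SD, n = 5 each). The sialyltransferase St3gal1 rose by 0.50, the deubiquitinase family member Desi2 by 0.40 and the kinase Map3k10 by 0.38. Arl6ip6 rose by 0.42 with overlapping groups, a call lost with the methods' t-test (adjusted p = 0.0788), Tmc4 by 0.34 and the mitochondrial lipid carrier family member Prelid3b by 0.33. A further 7 of the 20 risers, among them Elmo2 and Galns with overlapping groups, lost their call when a single array was left out. These were Slbp, which binds the stem-loop of replication-dependent histone mRNAs (0.49, adjusted p up to 0.0826 by limma without any of PHx arrays 1, 2 and 3 and sham arrays 1, 2 and 5), Pkdcc (0.34, up to 0.0989 without PHx arrays 4 and 5 and sham array 5), the alcohol dehydrogenase Adh7 (0.33, up to 0.099 without PHx arrays 3, 4 and 5 and sham array 5), the lysosomal sulphatase Galns (0.32, up to 0.115 without any array but PHx array 3 and sham array 2), Zfp930 (0.29, up to 0.0585 without PHx arrays 2 and 4 and sham arrays 4 and 5), Elmo2 (0.29, up to 0.0799 without PHx arrays 2 and 5 and sham arrays 1, 4 and 5) and Kctd9 (0.27, up to 0.115 without PHx arrays 2, 3 and 4 and sham arrays 2 and 4).

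**Figure D1:**
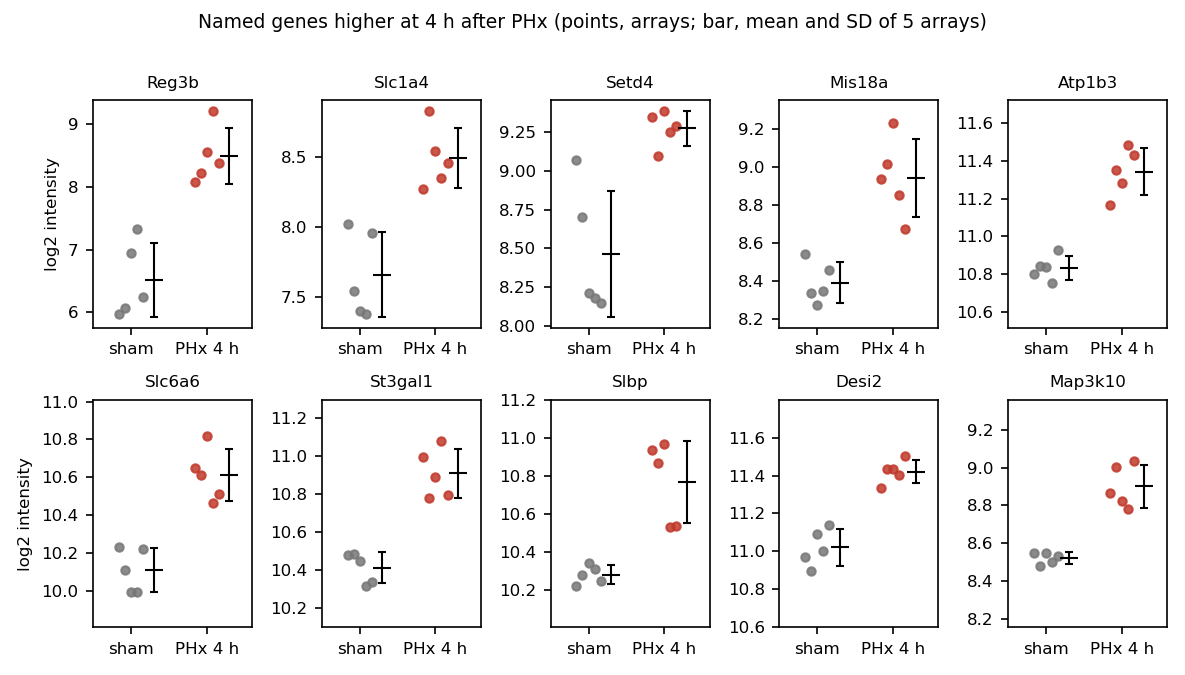
Log2 intensity of 10 named genes that were higher at 4 hours after PHx, on each of 5 sham arrays (grey) and 5 PHx arrays (red), with the mean and SD at the right of each group. All PHx points lie above all sham points for each gene, by the largest margin for Reg3b, and the axes differ between panels. The panels are a selection that leaves out, among others, Arl6ip6, Elmo2 and Galns, whose groups overlap. On 5.85% of all probes all PHx arrays lay above all sham arrays.

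Rgs16 had the largest fall of any named gene. It encodes a GTPase activating protein that shortens signals of Gi and Gq coupled receptors, and in liver it varies with feeding and the clock. Sham livers were at 13.42, 13.68, 13.02, 13.03 and 12.27, and PHx livers at 10.99, 10.66, 11.19, 11.53 and 11.04. The means were 13.08 ± 0.53 and 11.08 ± 0.32 (SD, n = 5 each), about 4-fold apart with no overlap (limma, adjusted p = 0.000411). Lmntd1, a lamin tail domain protein, followed with -1.95, but its sham livers ranged from 9.68 to 11.72 and 1 PHx liver, at 9.51, came near them. Zfp207, a zinc finger protein that binds Bub3 at kinetochores, went from 12.04 ± 0.17 to 10.55 ± 0.50 (SD, n = 5 each), a log2 fold change of -1.49. Tango2, a protein of Golgi organisation, had the lowest p of the 15 genes with the largest fall, with sham livers at 12.27 to 12.63 and PHx livers at 10.92 to 11.25 (-1.32 with a standard error of 0.10 on the log2 scale, limma, adjusted p = 4.34e-09). A second Tango2 probe gave -0.69. The others of these 15 were Cpsf4l (-1.40), Bcar3 (-1.39), Cyp17a1 (-1.37), the zinc finger protein Nfxl1 (-1.36), Nsmce3 of the SMC5/6 complex (-1.35), Cyp2c38 (-1.31), Zmym5 (-1.31), Pfkfb1 (-1.29), Txnrd1 (-1.28), Nfia (-1.28) and Rsrc2 (-1.27). Of these 15 genes, only the arrays of Nsmce3 overlapped between the groups.

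**Figure D2:**
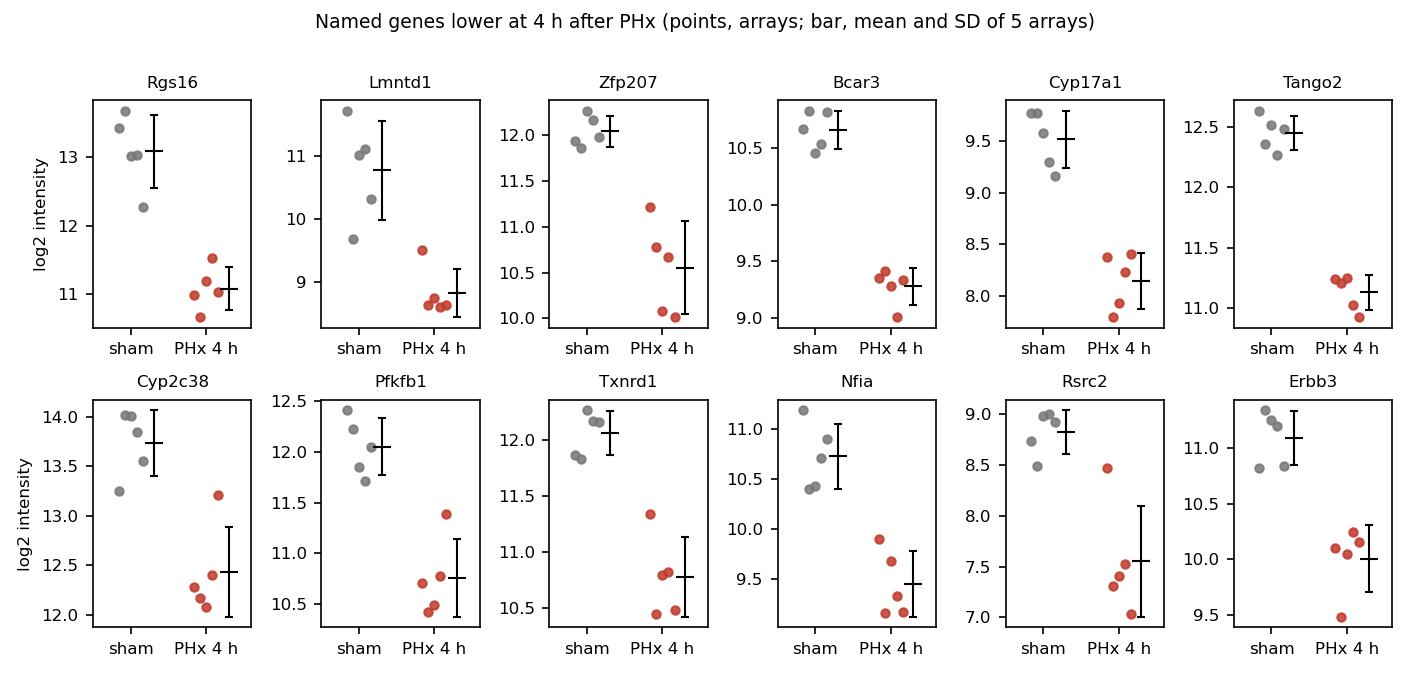
Log2 intensity of 12 named genes that were lower at 4 hours after PHx, on each of 5 sham arrays (grey) and 5 PHx arrays (red), with the mean and SD at the right of each group. The groups are separate in every panel, with the narrowest gaps shown for Rsrc2, Cyp2c38 and Lmntd1. The panels are a selection. They leave out, among others, Nsmce3, whose groups overlap, and Nfxl1, with a gap of 0.01. On 4.96% of all probes all PHx arrays lay below all sham arrays.

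The genes were then grouped by function. Of 372 genes in 23 lists, 3 were higher and 161 lower, and the shares of lower members ran from none to 79.2%, beside 6.35% of all probes. As the members come from the study's list of changed transcripts, these counts describe the members and test nothing. Values below are log2 fold changes.

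Of 26 receptors of growth factors and cytokines and their signalling partners, 16 were lower and 1 was higher, with a median of -0.37. Met, the receptor of hepatocyte growth factor, was at 8.37, 8.82, 8.21, 8.26 and 8.72 in sham livers and at 7.77, 8.01, 7.81, 7.96 and 7.88 after PHx. It fell by 0.59 with no overlap (adjusted p = 0.00577 by limma). Erbb3, which pairs with other receptors of the EGF family, went from 11.09 ± 0.24 to 10.01 ± 0.30 (SD, n = 5 each; -1.08, adjusted p = 8.92e-06 by limma). Egfr did not pass (-0.25, adjusted p = 0.265 by limma), with sham livers at 13.03 to 13.58 and PHx livers at 12.84 to 13.33. The adaptor Bcar3, which works downstream of integrins and growth factor receptors, had the largest change of the list and was lower on both of its probes (-1.39 and -1.28). The Src family kinase Yes1 fell by 0.58 and the p38 kinase Mapk14 by 0.56 (a second probe, -0.35). The call of Mapk14 was lost with the methods' t-test (adjusted p = 0.0599). No mRNA probe of Il6st, the signalling chain of the interleukin 6 receptor, was named. BC058551, a putative lncRNA probe within that gene, fell by 0.51 (from 12.17 ± 0.11 to 11.66 ± 0.16, SD, n = 5 each).

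Among 16 genes of G protein signalling, 6 were lower and none was higher (median -0.18). Beside Rgs16 these included Adra2b, an adrenergic receptor coupled to Gi, with sham livers at 8.34, 7.93, 7.64, 7.44 and 8.29 and PHx livers at 6.83, 7.01, 6.54, 6.48 and 6.49. Its log2 fold change was -1.26 (adjusted p = 0.000116 by limma). Gpsm2, which links G proteins to the mitotic spindle, fell by 0.91 and the inositol trisphosphate receptor Itpr1 by 0.44. The stem cell marker Lgr5 gave -0.32 (adjusted p = 0.0403 by limma), with the PHx mean of 6.07 at the floor of the array, so that the size of the change is not known.

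Among the inflammatory genes with a name, Reg3b was the only one called higher. Of 7 acute phase and antimicrobial genes, Reg3b was higher, and Leap2 (-0.87), Lbp (-0.81) and Crp (-0.74) were lower. Crp, C-reactive protein, is not a strong acute phase protein in mice. It stood at 15.34 to 15.69 in sham livers and at 14.49 to 15.01 after PHx. The groups overlapped for Leap2 and Lbp, and both calls were lost with the methods' t-test (adjusted p = 0.053 and 0.0778). For Lbp, which binds lipopolysaccharide, the overlap was of 1 array, with PHx array 1 at 14.07 and the lowest sham array at 14.05. Of 18 genes of innate immune signalling 10 were lower and none was higher (median -0.41), among them Cul3 (-0.62), Irf2 (-0.56) and Tax1bp1 (-0.39), an inhibitor of TNF and interleukin 1 signalling. Of 11 chemokines and interferon response genes 4 were lower. The antigen peptide transporter Tap1 went from 9.28 ± 0.11 to 8.49 ± 0.09 (SD, n = 5 each; -0.79, adjusted p = 1.52e-05 by limma), Parp9 fell by 0.73 and Parp14 by 0.54 on 1 probe and 0.45 on another. Nmi gave -0.31, a call that was lost without any of PHx arrays 1 and 5 and sham arrays 1, 2, 3 and 4 (adjusted p up to 0.11 by limma). The neutrophil chemokine Cxcl1 was already high in sham livers, at 13.50 to 14.24, and PHx livers at 12.89 to 13.94 did not differ beyond their spread (-0.43, adjusted p = 0.584 by limma). Cxcl10 was near the array's median in both groups, at 6.38 to 6.83 and 6.53 to 6.79. Of the immediate early genes only Crem had a named probe (-0.10, adjusted p = 0.643 by limma), so these data do not describe that class.

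In the clock list, Per3, a repressor arm gene, fell below all sham livers. Per3 was at 6.80, 6.77, 6.03, 6.48 and 6.92 in sham livers and at 5.90, 5.89, 5.91, 5.80 and 5.95 after PHx. The PHx values lay at the floor of the array, so the measured change of -0.71 (SE 0.12, limma, adjusted p = 0.000232) may be smaller than the true one. Arntl, which encodes the activator Bmal1, stood at 7.59 ± 0.49 and 7.60 ± 0.16 (SD, n = 5 each), and Cry1 gave -0.28 (adjusted p = 0.339 by limma). Csnk1a1, a casein kinase, gave -0.33 on its brighter probe and -1.14 on the other. Det1, a ubiquitin ligase adaptor, gave -0.33, a call that was lost without any of PHx arrays 2, 3 and 5 and sham arrays 1, 2, 4 and 5 (adjusted p up to 0.155 by limma). The promoter of Per3, shown as it was the only 1 among the 471 windows of lower genes with the D-box TTATGTAA, holds that motif on 2 places (RefSeq, GRCm38.p6, chr4:151044616-151044915, minus strand, motif in capitals). It occurs in 0.938% of all windows.
Per3: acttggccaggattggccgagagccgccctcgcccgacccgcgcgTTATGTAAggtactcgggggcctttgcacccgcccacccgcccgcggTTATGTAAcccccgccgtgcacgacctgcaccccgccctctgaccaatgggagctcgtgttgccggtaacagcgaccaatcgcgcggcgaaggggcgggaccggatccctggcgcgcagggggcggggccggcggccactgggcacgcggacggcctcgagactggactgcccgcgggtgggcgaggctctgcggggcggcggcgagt

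Next came the lists of hepatocyte metabolism. Of 13 genes of drug and steroid metabolism 10 were lower (median -0.61). Cyp17a1, the steroid 17-hydroxylase, was at 9.16 to 9.78 in sham livers and at 7.79 to 8.41 after PHx (-1.37, adjusted p = 4.83e-05 by limma). Cyp2c38 was at 13.25, 14.02, 14.01, 13.85 and 13.55 in sham livers and at 12.28, 12.17, 12.08, 12.40 and 13.21 after PHx, where array 5 nearly reached the lowest sham liver. Cyp2c50 fell by 0.61 and the acetyltransferase family member Nat8f2 by 0.59. Probes of related Cyp2c genes may share signal. Of 15 genes of carbohydrate and amino acid metabolism 9 were lower (median -0.41). Pfkfb1, the liver enzyme that sets fructose 2,6-bisphosphate, went from 12.05 ± 0.28 to 10.76 ± 0.38 (SD, n = 5 each). Aldh6a1 of valine breakdown fell by 1.21, arginase Arg1 by 0.82 and the glucose 6-phosphate carrier Slc37a4 by 0.75.

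Fat metabolism was covered by a pair of lists, whose difference was not tested. Of 17 genes of fatty acid oxidation and peroxisomes 8 were lower and none was higher (median -0.36). Of 11 genes of lipid synthesis Mid1ip1 alone was lower (-0.77), but 3 were lower when the dimmest 30% of probes were left out. Cpt1a, which brings fatty acids into mitochondria, was at 13.87 to 14.42 in sham livers and at 13.47 to 13.66 after PHx (-0.66, adjusted p = 0.000377 by limma). Its regulator Ppara gave -0.34, which did not pass (adjusted p = 0.224 by limma) although the PHx livers at 12.03 to 12.45 all lay below the sham livers at 12.50 to 12.81. It passed when only the 10 arrays were fitted (adjusted p = 0.0275 by limma). The peroxisomal protease Lonp2 fell by 0.80 and the phospholipase Pnpla8 by 0.43.

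The stress list went both ways, with 8 of 21 genes lower and Slc1a4 higher. Txnrd1, the cytosolic thioredoxin reductase, was at 11.83 to 12.27 in sham livers and at 10.45 to 11.34 after PHx (-1.28, adjusted p = 7.49e-05 by limma). Chac1, which degrades glutathione and is a target of the amino acid response, fell by 1.01 (from 9.69 ± 0.15 to 8.67 ± 0.19, SD, n = 5 each). Bnip3, a hypoxia-induced protein of mitophagy, fell by 0.65. Nqo1, another NRF2 target, gave -0.02 and did not pass.

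The lists that follow run from transcription to secretion. Of 41 genes of splicing and mRNA processing 23 were lower and none was higher (median -0.36). Rsrc2 was at 8.82 ± 0.21 (SD, n = 5) in sham livers, with the lowest at 8.49, and at 7.03 to 7.53 on 4 PHx arrays, with PHx array 1 at 8.47. Pnn, a nuclear speckle protein, fell by 1.04 and Thoc2 of the mRNA export complex by 0.67. Crnkl1 gave -0.72 on its brighter and -1.45 on its dimmer probe. Of 19 general transcription genes 13 were lower (median -0.34), with Tbp, the TATA-binding protein often used as a reference gene, at 9.65 to 10.09 in sham livers and 8.94 to 9.35 after PHx. Taf12 and Yy1 fell by 0.68 each (the call of Yy1 was lost with the methods' t-test, adjusted p = 0.0668) and Polr2b by 0.43. Of 24 chromatin modifiers 5 were lower (median -0.17), among them the bromodomain protein Brd3 (-0.67, adjusted p = 3.93e-07 by limma), Sirt2 (-0.84), Sirt7 (-0.76) and the histone deubiquitinase Mysm1 (-0.63). The groups overlapped for Sirt2 and Sirt7, and both calls were lost with the methods' t-test (adjusted p = 0.0987 and 0.0622). Of 18 genes of the secretory pathway 12 were lower (median -0.44), such as Copb1 of the COPI coat (-0.66), Srp68 of the signal recognition particle (-0.63), Sec16a of ER exit sites (-0.58) and Sec24d of the COPII coat (-0.44). Of 8 secreted plasma proteins 5 were lower, of which Leap2, Lbp and Crp were already given with the acute phase genes. The 5 also included prothrombin F2 (-0.24), a call that was lost after quantile normalization and with either normexp offset (adjusted p up to 0.25 by limma).

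Ubiquitin ligases and their adaptors had the highest share of lower members, 19 of 24 (79.2%, median -0.51), with none higher. Fbxl20 was at 8.55 to 8.75 in sham livers and at 7.53 to 7.95 after PHx (-0.91), and Rnf6 at 10.67 to 10.91 and 9.85 to 10.24 (-0.79). Fbxl12 fell by 0.60 and Crbn, the cereblon substrate receptor, by 0.50. Of 13 transcription factors with roles in liver 8 were lower and none was higher. Nfia fell on both probes (-1.28 and -0.55), Hsf2 by 0.58, Tbx3 by 0.55 and Sox6 by 0.36 (a second probe, -0.48).

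**Figure D3:**
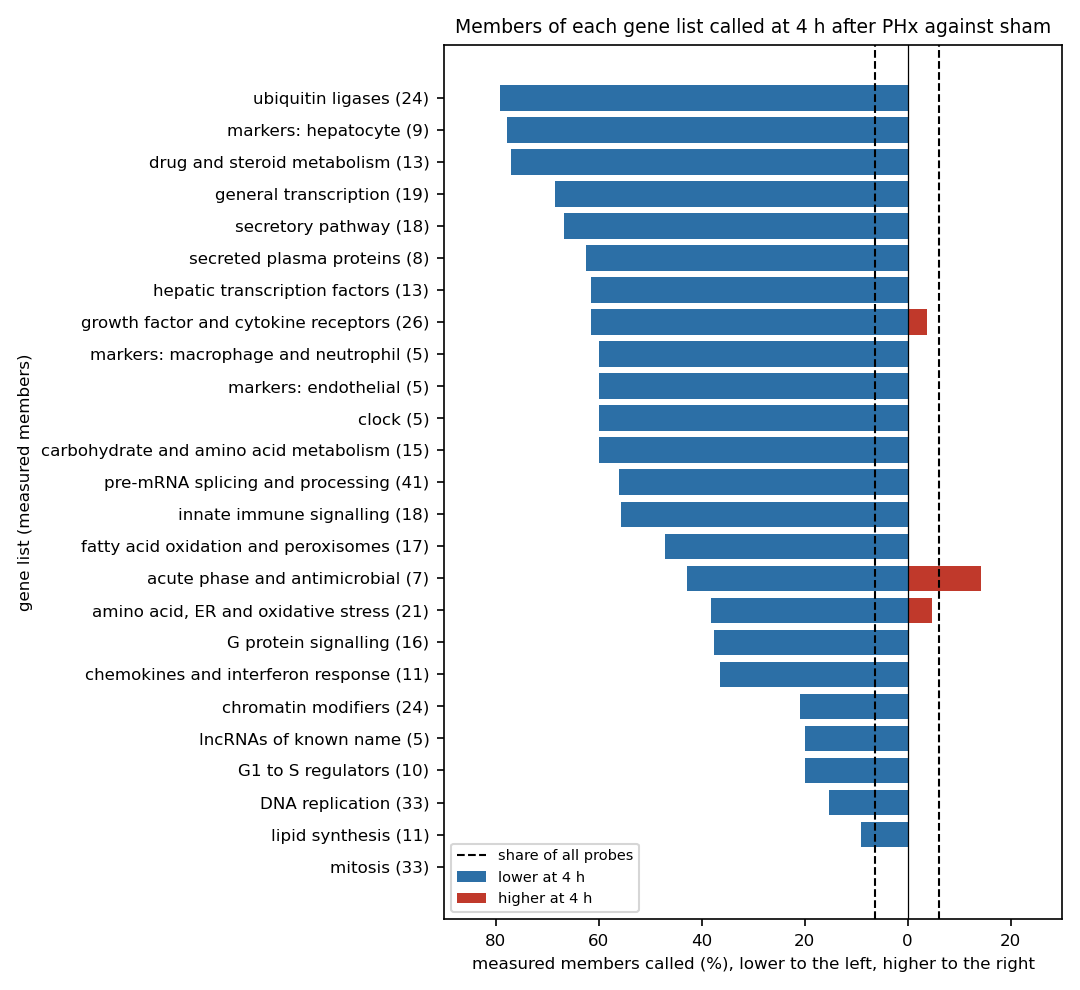
Share of the measured members of each gene list with at least 5 members that were lower (blue, to the left) or higher (red, to the right) at 4 hours after PHx, with the number of members in brackets and dashed lines at 6.35% lower and 6.12% higher of all probes. Ubiquitin ligases reach 79.2% lower, mitosis has no member in either direction, and only 3 lists have a higher member.

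No member of the lists of mitosis, DNA replication and entry into S phase was called higher at 4 hours. None of 33 genes of mitosis was called, with a median of 0.13 and the largest value, 0.64, for Ccnb2 (adjusted p = 0.304 by limma). Of 33 genes of DNA replication none was higher and 5 were lower, by 0.47 or less. These were Mcm4 of the helicase (-0.47), the clamp loader subunit Rfc1 (-0.40 and -0.39 on its probes), Rpa2 (-0.38), Pold3 (-0.34) and Orc5 (-0.30). The largest change of the list, -0.71 for Fen1, did not pass (adjusted p = 0.0583 by limma), although all its PHx arrays lay below all sham arrays. The median of the list was 0.06. The call of Mcm4 was lost without PHx array 3 or 5 (adjusted p up to 0.0577 by limma) and that of Rpa2 without any of PHx arrays 1, 4 and 5 and sham arrays 1, 2, 3 and 5 (up to 0.087). Of 10 genes that govern entry into S phase 2 were lower. The inhibitor Cdkn1b, p27, was at 9.49 to 9.91 in sham livers and at 8.55 to 9.13 after PHx (-0.79, standard error 0.15, adjusted p = 0.000762 by limma). The phosphatase Cdc25a gave -0.35, with a call that was lost without PHx array 4 or 5 or sham array 1 (adjusted p up to 0.0722 by limma) and not made on its second probe (-0.26).

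The rows at hand of the study's list held 224 putative lncRNA probes. Of these 126 (56.2%) were lower and 1 was higher at 4 hours, with a median of -0.36. Of the 1719 mRNA probes in these rows 736 were lower (42.8%) and 23 higher, with a median of -0.29. Of all probes, 6.35% were lower and 6.12% higher. By limma refitted without single arrays, 89 to 131 of the lncRNA probes were lower, and with the methods' t-test 81. The split by the study's clusters was close between the types. In cluster 2, 74 of 91 lncRNA probes (81.3%) and 360 of 471 mRNA probes (76.4%) were lower, and in cluster 3, 54 of 110 (49.1%) and 313 of 610 (51.3%). In cluster 1, of rising transcripts, 5 of 30 lncRNA probes were lower and 1 was higher, and of 401 mRNA probes 54 were lower and 17 higher. In cluster 4, also of rising transcripts, 50 of the 285 mRNA probes at hand were lower and 6 higher. No lncRNA probe of that cluster was at hand. The shares over all lncRNA and all mRNA probes therefore cover different clusters and cannot be compared. Of the 224 probes, 96 lie within a protein-coding gene, and 58 of these were lower. The signal of such a probe and that of its host cannot be told apart here.

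Malat1, an abundant RNA of nuclear speckles, had 6 probes, of which 4 were lower at 4 hours, none was higher, and all had negative log2 fold changes. The brightest was at 14.29, 14.31, 14.65, 14.58 and 14.36 in sham livers and at 13.58, 13.73, 14.01, 13.75 and 13.43 after PHx (-0.74, adjusted p = 0.0114 by limma). The next fell by 0.97 and a dimmer one from 9.04 ± 0.15 to 7.84 ± 0.19 (SD, n = 5 each; -1.20, adjusted p = 3.73e-07 by limma). The fourth call (-0.46) was lost without any of PHx arrays 3 and 5 and sham arrays 1 and 5 (adjusted p up to 0.0859 by limma). The remaining probes gave -0.53 and -0.38 (adjusted p = 0.172 and 0.069 by limma), and the latter passed without PHx array 5 (adjusted p = 0.0437) and with only the 10 arrays.

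The largest fall among the putative lncRNA probes was that of 4930502E09Rik, with sham livers at 10.13, 8.61, 9.48, 9.50 and 8.55 and PHx livers at 8.15, 7.74, 7.39, 7.68 and 7.47 (-1.57, adjusted p = 0.000133 by limma). AK145182, which lies within Met, was at 8.79 to 9.88 in sham livers and at 7.44 to 8.64 after PHx (-1.42), beside -0.59 for the Met mRNA probe. AK038898 gave -1.32 and AK012741 -1.20, both without overlap. AK044071 gave -1.38, but sham array 5, at 7.70, lay among the PHx livers at 7.47 to 7.91, and the call was lost with the methods' t-test (adjusted p = 0.0726). The single riser, AK082156, was at the floor of the array (5.82 to 5.94 and 5.99 to 6.16, a difference of 0.18), and its call was lost without PHx array 3 or 5 or sham array 1 (adjusted p up to 0.0747 by limma). The lncRNA 2810408I11Rik, which the study named LncPHx2, was at 8.51 ± 0.23 in sham livers and 8.02 ± 0.28 after PHx (SD, n = 5 each; -0.48, adjusted p = 0.226 by limma) and did not pass, though it passed when only the 10 arrays were fitted (adjusted p = 0.0403 by limma). The imprinted antisense RNA Kcnq1ot1 gave -0.19 (adjusted p = 0.0668 by limma) and passed without PHx array 2 (adjusted p = 0.0372).

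**Figure D4:**
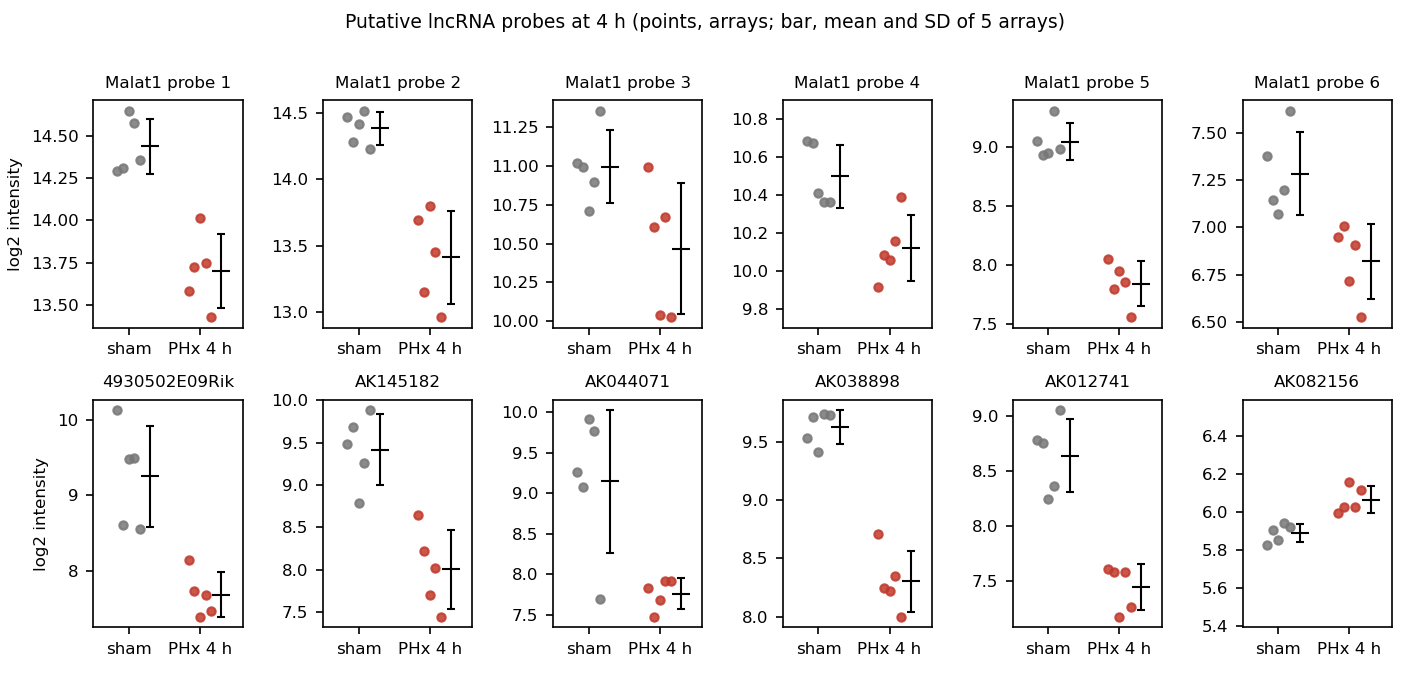
Log2 intensity of the 6 Malat1 probes, ordered by sham mean, and of 6 other putative lncRNA probes on each of 5 sham arrays (grey) and 5 PHx arrays (red), with the mean and SD at the right of each group. All PHx points lie below all sham points for Malat1 probes 1, 2, 5 and 6, 4930502E09Rik, AK145182, AK038898 and AK012741, whereas AK082156 moves by 0.18 at the floor. On 4.96% of all probes all PHx arrays lay below all sham arrays.

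Markers of the cells of the liver were set beside these lists. Only those in the rows at hand of the study's list of changed transcripts could be measured, for hepatocytes 9 of 12. The counts and sums below therefore describe these members and test nothing. Of all probes, 6.35% were lower. Of 9 hepatocyte markers 7 were lower, and their summed intensity was 301468 to 349692 on the sham arrays and 187730 to 242242 on the PHx arrays. All 9 are probes already counted in the lists above, so they repeat those falls and are no separate reading of hepatocyte content. Of 5 endothelial markers 3 were lower, Clec14a most (-1.04), and the sums were 2068 to 2397 and 1679 to 1791. Only 1 of them was lower after centring the arrays on the median. The sums of 4 stellate cell markers were 2700 to 3344 and 2124 to 2949, which overlap. Of 5 macrophage and neutrophil markers 3 were lower, Spic (-0.48), Nlrp3 (-0.43) and Plxnc1 (-0.30, near the floor), while the sums, 1024 to 1314 and 838.5 to 1237, overlapped. The part of a change in cell types in the falls above was not tested.

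The later groups give context for the 4 hour values, though they share the sham livers and differ from them in hours since surgery. Bcar3 was at 9.28 ± 0.16 (SD, n = 5) at 4 hours and at 11.37 at 72 hours, against 10.66 in sham livers. The log2 fold changes of Adra2b were -1.26, -0.55, 0.73 and 0.99 at 4, 12, 36 and 72 hours, those of Gpsm2 -0.91, 0.45, 1.02 and 1.27, and those of Tap1 -0.79, 0.19, 0.32 and 0.75. Rgs16 and Chac1 were lower at each time, with -5.33 and -2.61 at 36 hours. The log2 fold change of Reg3b was 5.54 at 12 hours and that of Slc1a4 was 3.498 at 36 hours, with -0.15 at 12 hours. No time was compared with another.

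**Figure D5:**
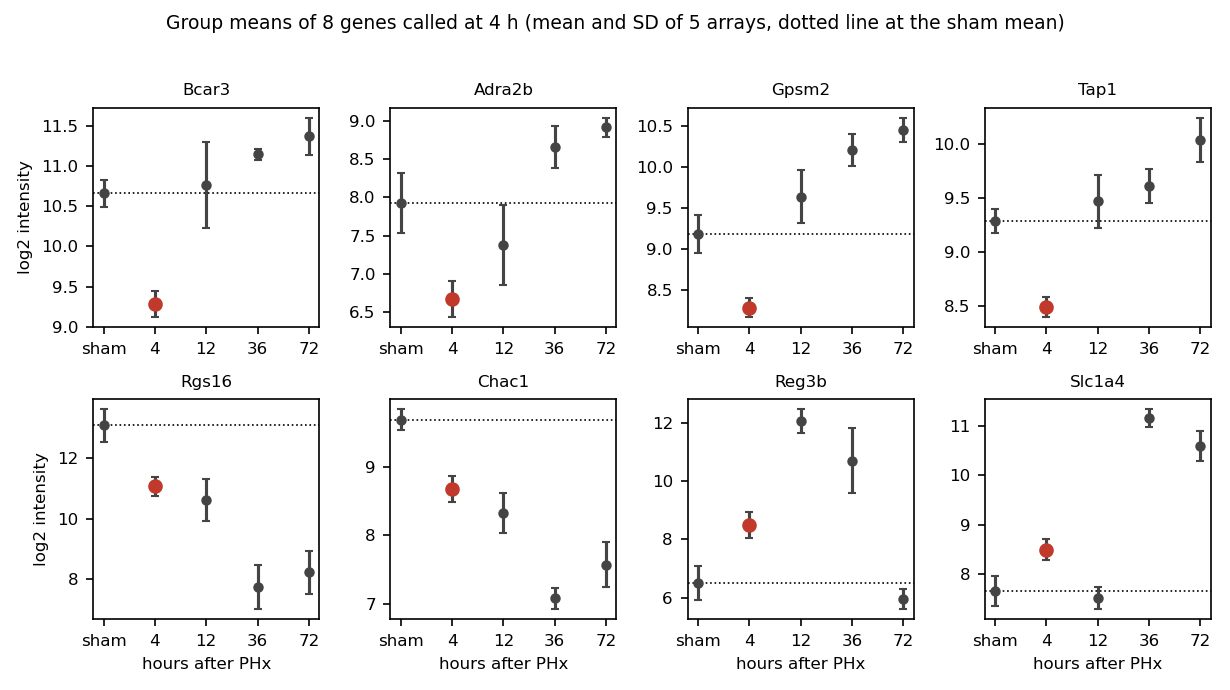
Mean and SD of the log2 intensity of 8 genes called at 4 hours, in sham livers and at 4 (red), 12, 36 and 72 hours after PHx, 5 arrays each, with a dotted line at the sham mean. Bcar3, Adra2b, Gpsm2 and Tap1 are below the line at 4 hours and above it at 72 hours, and Rgs16 and Chac1 stay below it.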

How the data were processed

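Liver RNA of 25 mice was hybridised to 1 single-colour array each, and the 10 arrays of the 4 hour PHx and sham groups were compared. The authors deposited 1 linear intensity per probe and array, already brought to 1 scale between arrays. The methods name the vsn package, but the deposited intensity values are not on its scale, and what else was done to scale them is not stated in the sources at hand. A background not removed makes fold changes of dim probes too small. The intensities of 35979 probes (2 blank ones left out) were taken to log2 and fitted with 1 mean per group over all 25 arrays with limma 3.58.1 (lmFit, eBayes; R 4.3.3). P-values were adjusted by Benjamini and Hochberg over all probes, and a probe was called at an adjusted p under 0.05. Precision is limited by having 5 arrays in a group. The fit was tested on simulated data first.

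Names came from 1998 rows of the study's transcript list, which hold 1943 distinct probes, and 1383 had a current symbol in a table of mouse genes. A further 2119 rows were not used here. A gene was taken by its probe with the highest mean. GenBank accessions name the putative lncRNA probes that lie inside protein-coding genes and also those not matched to a known noncoding gene. Named were all protein-coding genes called higher, the 15 with the largest fall, up to 4 called members per list with the smallest p and those against its majority, the lncRNA probes with the largest changes, 14 genes chosen by name and the unnamed probes with the largest changes; the text gives those of 123 such probes that carry the comparison, and some are not reported here. The members and lists were chosen with earlier results of these data known. Medians over lists were set beside all probes with no test. Promoter windows came from RefSeq (GRCm38.p6) and covered 378 of 465 lower genes. Alternatives of normalization, centring, background, filter, variance model, test, arrays and replicate numbers were tried. The correlation of same-numbered arrays of the 2 groups in their deviations from the group means was -0.36 to 0.20. The labels do not say whether the numbers pair the livers, and these few correlations cannot settle it. Nothing says which livers were processed together, so p-values measure the spread between these livers alone. Python 3.11.15 with pandas 2.3.3 was used for the tables and matplotlib 3.10.9 for the plots.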

Additional observations from a re-analysis of the deposited data

Results flagged for a closer look

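In 14 of the 246 groups of 5 arrays examined (5.69%, where chance gives about 1 in 20), 1 array stood far from the other 4 in a named gene or probe. All values are log2 intensities. Among PHx arrays, array 1 was at 9.51 for Lmntd1 (others 8.59 to 8.74). Array 2 was at 9.49 for Erbb3 (others 10.04 to 10.25), 8.48 for Gpsm2 (8.19 to 8.27), 10.23 for Bnip3 (10.66 to 10.77) and 13.33 for Egfr (12.84 to 12.96). Array 3 was at 10.33 for Itpr1 (10.52 to 10.57) and 8.06 for Galns (8.32 to 8.37). Array 5 was at 13.21 for Cyp2c38 (12.08 to 12.40), 8.94 for Tbp (9.24 to 9.35) and 10.57 for Nmi (10.79 to 10.86). Among sham arrays, array 1 was at 9.91 for Cdkn1b (others 9.49 to 9.58) and 7.63 for probe IVGNm15932 (8.21 to 8.37), and array 5 was at 8.43 for Arntl (7.21 to 7.54) and 12.12 for Adh7 (12.41 to 12.49).

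In 12 of the 123 named genes or probes, all 4 hour arrays lay on 1 side of the sham arrays. All 72 hour arrays lay on the other. The share of all probes that did so is not given, so the 12 are not shown to be unusual. They are not a full list either, as 64 of the 1170 named protein-coding genes were called lower at 4 hours and higher at 72 hours. The difference between the times was not tested, and both used the same sham livers. The log2 fold changes at 4 and at 72 hours were -1.39 and 0.71 for Bcar3, -1.26 and 0.99 for Adra2b, -0.91 and 1.27 for Gpsm2, -0.79 and 0.75 for Tap1, -0.77 and 0.67 for Mid1ip1 and -0.31 and 0.63 for Nmi. For genes of DNA synthesis they were -0.47 and 0.84 for Mcm4, -0.40 and 0.44 for Rfc1, -0.38 and 1.62 for Rpa2, -0.35 and 0.67 for Cdc25a and -0.30 and 0.28 for Orc5. The unnamed probe IVGNm26185 went the other way, with 4.44 and -1.20.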

How the results depend on the processing

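Across the alternatives the number of higher probes ran from 1723 to 2478 and of lower ones from 1595 to 2402, always within 1.5 times the reported counts. Without single arrays it was 1723 to 2078 higher and 1731 to 2277 lower. Centring on the median gave 2463 higher and 2019 lower, with a share of higher calls of 55%, against 49.1%. The methods' t-test with Benjamini-Hochberg adjustment gave 1930 and 1595, and of its calls 2995 were shared with the reported ones in direction. It called 81 lncRNA probes lower, against 126. The single lncRNA riser was lost (0 higher) with only the 10 arrays in the fit and without the dimmest 30% of probes, and the count was 0 to 1 and the lower ones 89 to 131 without single arrays. The count of lower members of lipid synthesis was 3, of stellate markers 2 and of lymphocyte markers 1 without the dimmest probes, and that of endothelial markers 1 under either centring and normexp with offset 16. The replicate block gave 2129 higher and 2214 lower, 239 and 133 at 2-fold and 122 lncRNA probes lower, and only array 4 correlated best with its own number. No called gene reversed, whereas the uncalled Arntl (-0.08 to 0.23) and Cxcl10 (-0.04 to 0.07) took either sign. Of 112 named genes and probes called, 14 lost the call without some single array and 15 under the t-test. Probes near the array's floor limit what can be seen of small changes.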
